A study of Sus scrofa with 9 samples.

Results

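The genes of the early secretory pathway were examined in pig esophagus: those for moving new proteins into the endoplasmic reticulum (ER), folding and glycosylating them there, clearing those that misfold, and carrying the rest to and from the Golgi. Members were taken by gene symbol, from families such as SEC, SRP, SSR, SPCS, PDIA, DERL, EDEM, COP, TMED, KDELR and GOLGA plus a few named chaperones. The rule uses no measured value beyond picking the brighter probe set where a gene had several. It was set with earlier results of these data known, so the shares below only describe. This gave 85 of the 12217 genes with a probe set naming 1 gene. By role they were 22 genes of recognition and translocation, 6 of N-glycosylation and mannose trimming, 13 of folding and disulfide bond formation, 7 of ER-associated degradation, 11 of the COPII coat and ER exit, 18 of the COPI coat, p24 proteins and KDEL receptors, 5 golgins, and 3 (SEC14L1, SEC14L2 and SEC14L5) that share a name prefix but encode lipid-binding proteins outside this machinery. HSP90B1, DNAJC3, KDELR2, DERL2, SYVN1 and RPN2 have no probe set of their own symbol alone here and are not described.

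Expression was measured on 9 Affymetrix PorGene arrays, 3 per group, each from total RNA of 1 pig. ESMG, the submucosal glands of the esophagus, which secrete mucus and antimicrobial proteins, and squamous tissue were both taken from pigs 37, 39 and 40, whose source is labelled as control esophagus. Spheroids grown in vitro from ESMG came from pigs numbered 1, 2 and 3, kept in growth factor reduced Matrigel under Advanced DMEM/F12 with 10 mM HEPES, B27, N2 and recombinant human EGF at 50 ng/ml. The labels do not say how these pigs relate to pigs 37, 39 and 40, nor give the animals' age, strain or sex. Tissue RNA and spheroid RNA were extracted with different kits (RNeasy Universal Mini and RNeasy Micro), so in both comparisons with spheroids the culture, the animals and the kit cannot be told apart. In whole tissue, fewer cells of a type and less RNA per cell cannot be told apart either.

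Proteins bound for secretion are recognised by the signal recognition particle as they leave the ribosome, threaded through the Sec61 channel into the ER, relieved of their signal peptide and given N-linked glycans. Chaperones such as HSPA5 (BiP) and the protein disulfide isomerases fold them, COPII vesicles carry them to the Golgi, and COPI vesicles return escaped ER residents that KDEL receptors have captured. Gland cells that secrete mucus hold much of this apparatus, and the unfolded protein response, with XBP1 and the CREB3-type factors among its regulators, is known to tune its amount.

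Values are levels on the log2 scale from robust multi-array averaging (RMA), where 1 unit means 2-fold. Array medians ran from 6.84 to 7.04, and the number of arrays limits the precision: the median standard error (SE) of a difference was 0.17. SEL1L2 alone was below the lower quartile of all probe sets on every array, so its values say little. A gene passed the test where its Benjamini-Hochberg adjusted p in limma, over all 12217 genes, was under 0.05, and was called where it also differed at least 2-fold.

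The tissue labels were set against marker genes. Summed linear levels of 18 measured gland markers were 48974, 42804 and 27803 in the ESMG arrays of pigs 37, 39 and 40, 22517 to 26023 in spheroids and 5643 to 9839 in squamous tissue. Squamous markers (7 of 21 measured) summed to 23452, 27970 and 35241 in the same ESMG arrays, 37566 to 43599 in squamous tissue and 16006 to 18060 in spheroids. ESMG arrays thus carried both kinds of marker, and among them pig 40 had the least gland and the most squamous signal. Of the 7 squamous markers, 2 passed lower in ESMG than in squamous tissue (background 1.65%) and limma called 0, with all 7 differences negative. In spheroids 5 were called lower than in ESMG (background 8.91%) and 1 passed higher (background 23.9%). Fibroblast markers (14 of 20 measured) summed to 45276 to 55025 in both tissues and 5089 to 7520 in spheroids, where 13 of 14 were called lower than in either tissue. Smooth muscle markers (9 of 12 measured) summed to 22439, 18835 and 28792 in the ESMG arrays, 31434 to 38144 in squamous tissue and 2116 to 2874 in spheroids: 5 of 9 passed lower in ESMG than in squamous tissue, and 7 were called lower in spheroids than in ESMG. Smooth muscle signal was thus lowest in spheroids and highest in squamous tissue. Leukocyte markers (13 of 17 measured) summed to 7080, 3116 and 4153 in ESMG, 2317 to 3713 in squamous tissue and 1831 to 2008 in spheroids. Of these 1 was called higher in ESMG than in squamous tissue, with all 13 differences positive, and 8 were called lower in spheroids than in ESMG. Endothelial markers (9 of 12 measured) summed to 3477 to 3604 in ESMG, 3082 to 3873 in squamous tissue and 937 to 1116 in spheroids, where 7 were called lower than in ESMG, while 0 passed between the tissues in limma (0 also by unadjusted p). Plasma cells also hold a large ER. Their 7 measured markers of 14 summed to 6624 to 11000 in ESMG, 2182 to 3566 in squamous tissue and 1015 to 1151 in spheroids. Between the tissues 2 of the 7 passed higher in ESMG (28.6%, background 4.40%), with 5 differences positive. In limma 0 passed lower (1 by unadjusted p). JCHAIN, the 1 called higher in ESMG, was the bulk of the sum there, and MZB1 was at 6.78 to 7.28 in ESMG and 6.60 to 7.20 in squamous tissue. In spheroids 3 of the 7 were called lower than in ESMG (42.9%, background 8.91%), with all 7 differences negative. The part that any of these cells play in the differences below was not tested.

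As a set, the 85 genes were brightest in ESMG and dimmest in squamous tissue. Their mean log2 level was 9.90, 9.74 and 9.41 in ESMG of pigs 37, 39 and 40, 9.25, 9.13 and 9.29 in squamous tissue of the same pigs, and 9.49, 9.38 and 9.58 in spheroids of pigs 1, 2 and 3. Over all genes the mean stayed between 7.39 and 7.41 on every array. The ESMG and squamous arrays did not overlap, and ESMG of pig 40 lay inside the range of the spheroids. ESMG of pig 40 was the lowest of the ESMG arrays for 71 of the 85 genes (83.5%, against 32.3% of all genes), and ESMG of pig 37 the highest for 62. ESMG had the highest group mean for 45 members (52.9%, against 21.3% of all genes) and squamous tissue the lowest for 49 (57.6%, against 24.1%). The 27 members that passed in no comparison made up 31.8%, against 49.9% of all genes.

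Between the 2 tissues, 5 members were called higher in ESMG, where 2.65% of all genes were: the KDEL receptor KDELR3, the degradation genes EDEM3 and DERL3, and both subunits of the signal recognition particle receptor, SRPRA and SRPRB. By limma 0 members were called lower, where 0.409% of all genes were, and 1 had an unadjusted p under 0.05 in that direction. By adjusted p alone 22 members were higher (25.9%, background 4.40%) and 1, ERO1A, was lower (background 1.65%). All ESMG arrays lay above all squamous arrays in 38 members (background 9.88%) and below them in 1 (background 11.7%). The median difference of the members was 0.47, against -0.06 for all genes, and 69 of 85 differences were positive against 4776 of 12217.

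The size of that count rested on which arrays and which spread entered. With pig as a fixed block in the 6 tissue arrays the same 5 genes were called, but 11 rather than 22 passed by adjusted p alone (background 3.79%). Without ESMG of pig 40, 17 members were called higher (background 3.66%) and 40 passed by adjusted p alone (background 6.47%). Without ESMG of pig 37, 8 passed (background 2.85%), and without ESMG of pig 39, 7 did (background 2.67%). Without squamous tissue of pig 37, 39 or 40, 12, 9 and 14 did (background 3.43%, 3.00% and 3.03%). The members' median lay between 0.30 (without ESMG of pig 37) and 0.62 (without ESMG of pig 40) with 1 array left out. Under all 19 alternatives that refitted the tissue comparison, 7 of the 22 passed each time: DERL3, KDELR3, PDIA4, RPN1, SEC24D, SPCS1 and SRPRA.

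**Figure D1:**
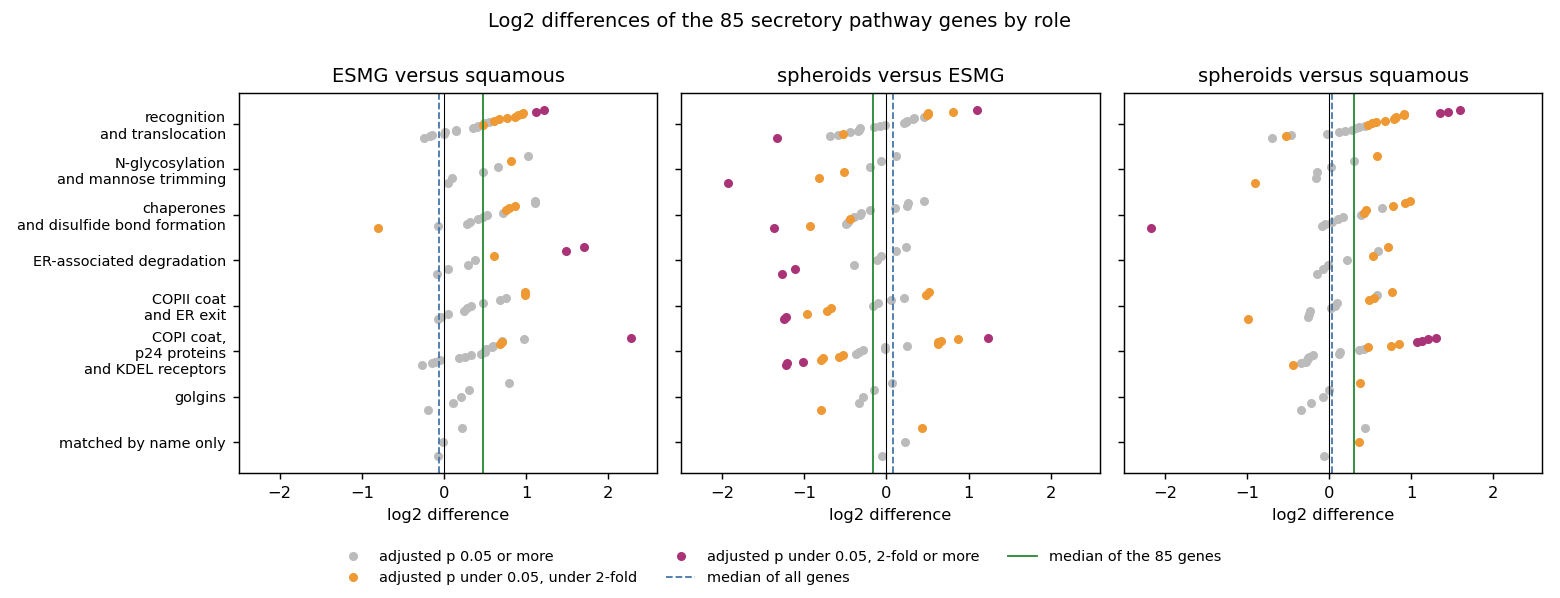
Each point is 1 of the 85 genes, placed by its log2 difference (horizontal axis) in its role group (vertical axis) for the 3 comparisons; colour gives the limma result, and the solid and dashed lines mark the medians of the 85 genes and of all genes. Most points lie right of 0 between the tissues (median 0.47), left of it in spheroids versus ESMG (-0.16) and right of it in spheroids versus squamous tissue (0.31).

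Between spheroids and ESMG, 2 members were called higher (background 7.99%) and 10 lower (background 8.91%). By adjusted p alone 13 were higher, a smaller share (15.3%) than that of all genes (background 23.9%), and 23 were lower, a larger one (27.1%, background 17.6%). Spheroids lay wholly above ESMG in 14 members (background 30.3%) and wholly below in 23 (background 21.0%). The members' median was -0.16 against 0.09 for all genes. Shifting the arrays to equal medians moved the median of all genes by 0.11 and turned the split by adjusted p into 17 higher and 14 lower, while quantile normalization gave 10 and 30 and cyclic loess 7 and 31. The members' median lay 0.25 below that of all genes as deposited. Equal medians cannot change that gap, since each array moves as a whole. The members' median was 0.39 below that of all genes after quantile normalization and 0.34 below it after cyclic loess. Without ESMG of pig 37 the split was 17 higher and 15 lower (background 20.9% and 15.8%), and without ESMG of pig 40 it was 9 and 35 (background 23.7% and 18.3%). The members' median lay between -0.26 and -0.10 with 1 array left out. Under all 18 refitted alternatives 6 of the 13 passed each time (SEC24C, SEC61G, SSR4, TMED1, TMED4 and TMED8), and so did 14 of the 23: COPA, COPB1, COPZ1, DERL3, ERO1A, GOLGA5, KDELR3, MAN1A1, SEC24A, SEC24D, SEC31A, SEC31B, SPCS2 and STT3A.

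Between spheroids and squamous tissue, 7 members were called higher (8.24%, background 8.61%), a share near that of all genes, and 1 lower (background 8.05%). By adjusted p alone 32 were higher (37.6%, background 23.6%) and 5 lower (5.88%, background 17.4%). Spheroids lay wholly above squamous tissue in 42 members (background 28.6%) and wholly below in 7 (background 21.9%). The median was 0.31 against 0.03 for all genes. Equal medians moved the median of all genes by 0.13 and gave 39 higher and 2 lower by adjusted p, quantile normalization 27 and 7, and cyclic loess 25 and 11. The counts of called members became 11 and 1, 6 and 1, and 6 and 3 in the same order. Under all 18 refitted alternatives 18 of the 32 passed each time, among them KDELR1, SEC61G, SPCS1 and DNAJB11, and 2 of the 5, ERO1A and SEC31B. The 2 comparisons with spheroids share the spheroid arrays, and each tissue serves in 2 comparisons, so the 3 sets of differences are not independent.

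**Figure D2:**
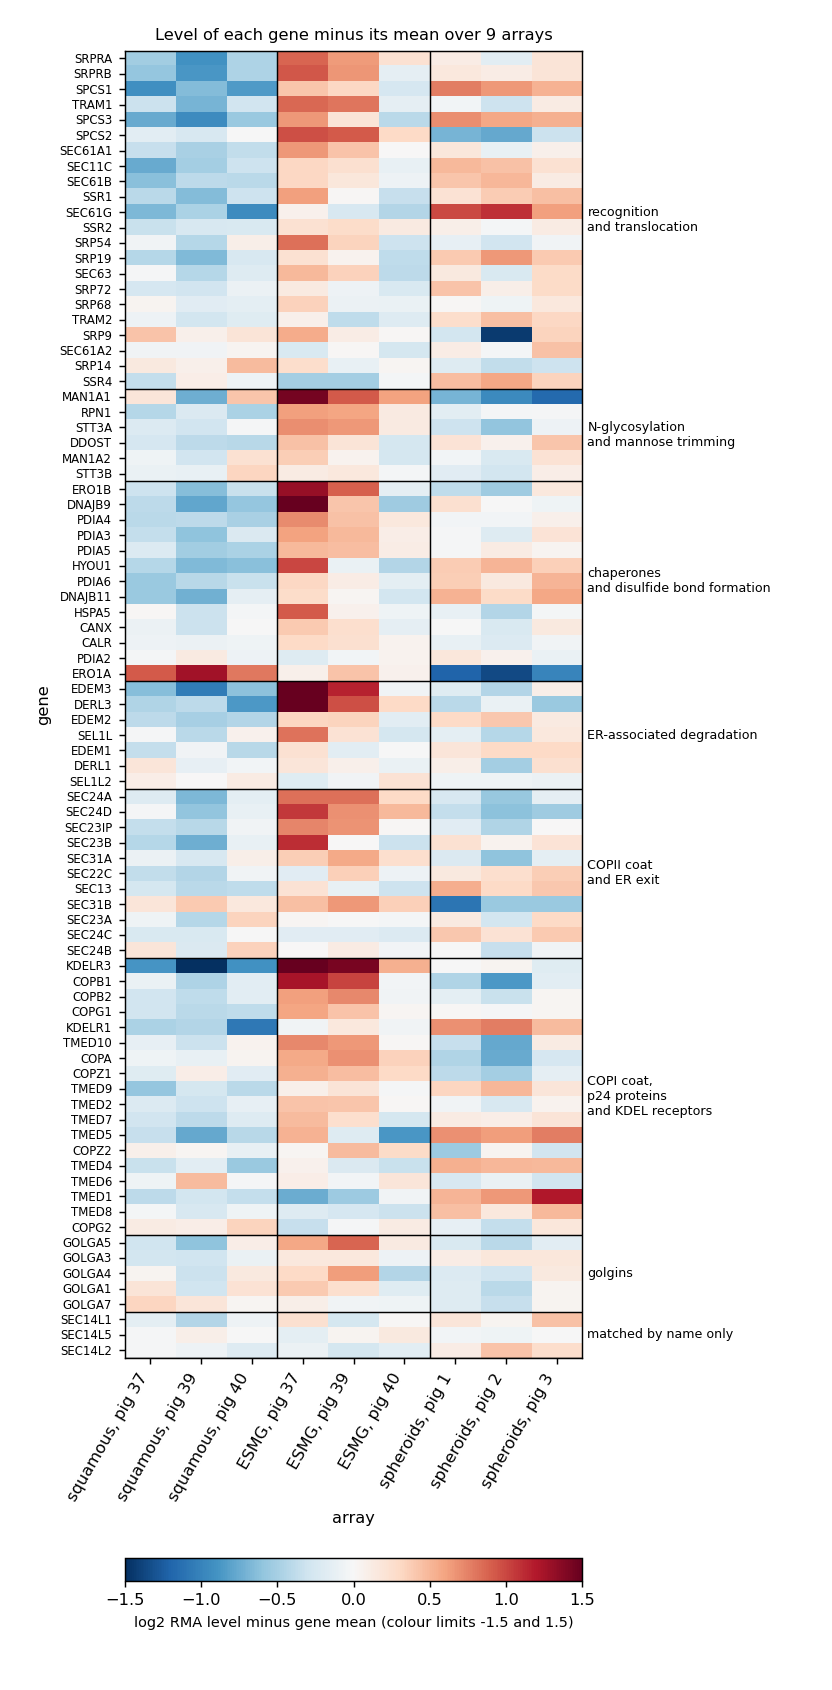
Rows are the 85 genes grouped by role, and columns the 9 arrays; colour is the log2 RMA level minus that gene's mean over the arrays, and values beyond the limits of -1.5 and 1.5 take the limit colour. ESMG of pigs 37 and 39 are mostly red and squamous tissue mostly blue, ESMG of pig 40 is paler, and ERO1A runs from red in squamous tissue to blue in spheroids.

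Recognition and translocation held the most members higher in ESMG than in squamous tissue: 10 of 22 passed (45.5%, background 4.40%) and 0 were lower (0 also by unadjusted p, background 1.65%). With pig as a fixed block 3 of the 10 passed, SRPRA, SRPRB and SPCS1. Values are given for pigs 37, 39 and 40 in the tissues and pigs 1, 2 and 3 in spheroids, in that order. SRPRA (probe set 15326616), the subunit of the ER membrane receptor that binds the signal recognition particle, was at 12.35, 12.12 and 11.70 in ESMG, 10.95, 10.56 and 11.01 in squamous tissue and 11.58, 11.32 and 11.67 in spheroids. No array of 1 group overlapped another group, and the order was ESMG, spheroids, squamous tissue. The tissue difference was 1.22 (2.32-fold, SE 0.19, adjusted p 0.00295), and the spheroids were 0.53 below ESMG (adjusted p 0.0425, and 0.121 with equal medians) and 0.68 above squamous tissue (adjusted p 0.0134). The difference from ESMG also missed the threshold without ESMG of pig 37 or 39, squamous tissue of pig 37 or spheroids of pig 1 or 2, and that from squamous tissue without squamous tissue of pig 39. A second, unused SRPRA probe set gave a tissue difference of 1.31.

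SRPRB (probe set 15221165), which anchors SRPRA in the membrane, was at 10.51, 10.24 and 9.44 in ESMG, 8.996, 8.70 and 9.11 in squamous tissue and 9.73, 9.69 and 9.77 in spheroids. All ESMG and spheroid arrays lay above squamous tissue, but ESMG of pig 40 fell below every spheroid array. The tissue difference was 1.13 (2.18-fold, SE 0.23, adjusted p 0.0147). It missed the threshold without ESMG of pig 37, ESMG of pig 39 or squamous tissue of pig 39 (adjusted p 0.059 to 0.0639). Of the particle itself, the 6 measured subunits SRP9, SRP14, SRP19, SRP54, SRP68 and SRP72 had tissue differences between -0.17 and 0.41 and 0 passed in limma (1, SRP19, had an unadjusted p under 0.05).

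At the channel, SEC61A1, which forms the pore, was at 11.33, 11.11 and 10.68 in ESMG, 10.33, 10.19 and 10.30 in squamous tissue and 10.84, 10.56 and 10.75 in spheroids. It was higher in ESMG by 0.76 (adjusted p 0.0222), and so was the small subunit SEC61B by 0.61 (adjusted p 0.0425). With pig as a fixed block these were at adjusted p 0.0555 and 0.1176. Both also missed the threshold without ESMG of pig 37 or 39 or any 1 squamous array, and SEC61B without spheroids of pig 1 or 2. The other small subunit, SEC61G, had a different order. It was at 8.33, 8.02 and 7.82 in ESMG, 7.58, 7.78 and 7.32 in squamous tissue and 9.24, 9.35 and 8.88 in spheroids, so each spheroid array exceeded each tissue array. Spheroids were above ESMG by 1.10 (2.15-fold, SE 0.19, adjusted p 0.000564) and above squamous tissue by 1.60 (3.02-fold, SE 0.19, adjusted p 3.89e-05). The first of these fell under 2-fold after cyclic loess (0.93) and without ESMG of pig 40 (0.98). SEC63, which helps draw chains through the channel, passed in no comparison. TRAM1, a protein beside the channel, was 0.95 higher in ESMG than in squamous tissue (adjusted p 0.0456, and 0.0667 with equal medians).

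Signal peptidase, which cleaves signal peptides, passed in all 4 measured subunits between the tissues: SEC11C 0.67, SPCS1 0.97, SPCS2 0.87 and SPCS3 0.90 higher in ESMG, with SPCS3 at adjusted p 0.0397, and at 0.0546 when arrays were shifted to equal medians. With pig as a fixed block SPCS1 alone of the 4 passed. SPCS2 was at 12.63, 12.59 and 11.97 in ESMG, 11.51, 11.43 and 11.66 in squamous tissue and 10.96, 10.90 and 11.35 in spheroids, which were the lowest arrays. It fell by 1.33 from ESMG to spheroids (2.51-fold, SE 0.19, adjusted p 0.000216). SPCS1 was at 9.81, 9.70 and 9.15 in ESMG, 8.48, 8.75 and 8.54 in squamous tissue and 10.16, 10.05 and 9.92 in spheroids, which were the highest. It was 0.49 above ESMG (adjusted p 0.0471, and 0.114 after quantile normalization) and 1.45 above squamous tissue (2.74-fold, adjusted p 6.01e-05). SPCS3 in spheroids was 1.36 above squamous tissue (2.56-fold, adjusted p 0.000521), and its difference of 0.46 from ESMG did not pass. Whether the subunits' differences differ from each other was not tested.

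Among the other members of the group, SSR1, SSR2 and SSR4 belong to the translocon-associated complex that aids insertion. SSR2 was 0.48 higher in ESMG than in squamous tissue (adjusted p 0.0429), whereas SSR4 was 0.81 higher in spheroids than in ESMG (adjusted p 0.00287) and did not pass between the tissues (-0.24). In spheroids against ESMG, 5 of the 22 were higher (22.7%, background 23.9%), a share near that of all genes, and 2 lower (9.09%, background 17.6%). Against squamous tissue 12 were higher (54.5%, background 23.6%) and 1, SRP14, lower (-0.52, adjusted p 0.0169, background 17.4%). The SRP14 pass was lost with equal medians (adjusted p 0.0668) and without squamous tissue of pig 40 or spheroids of pig 2.

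**Figure D3:**
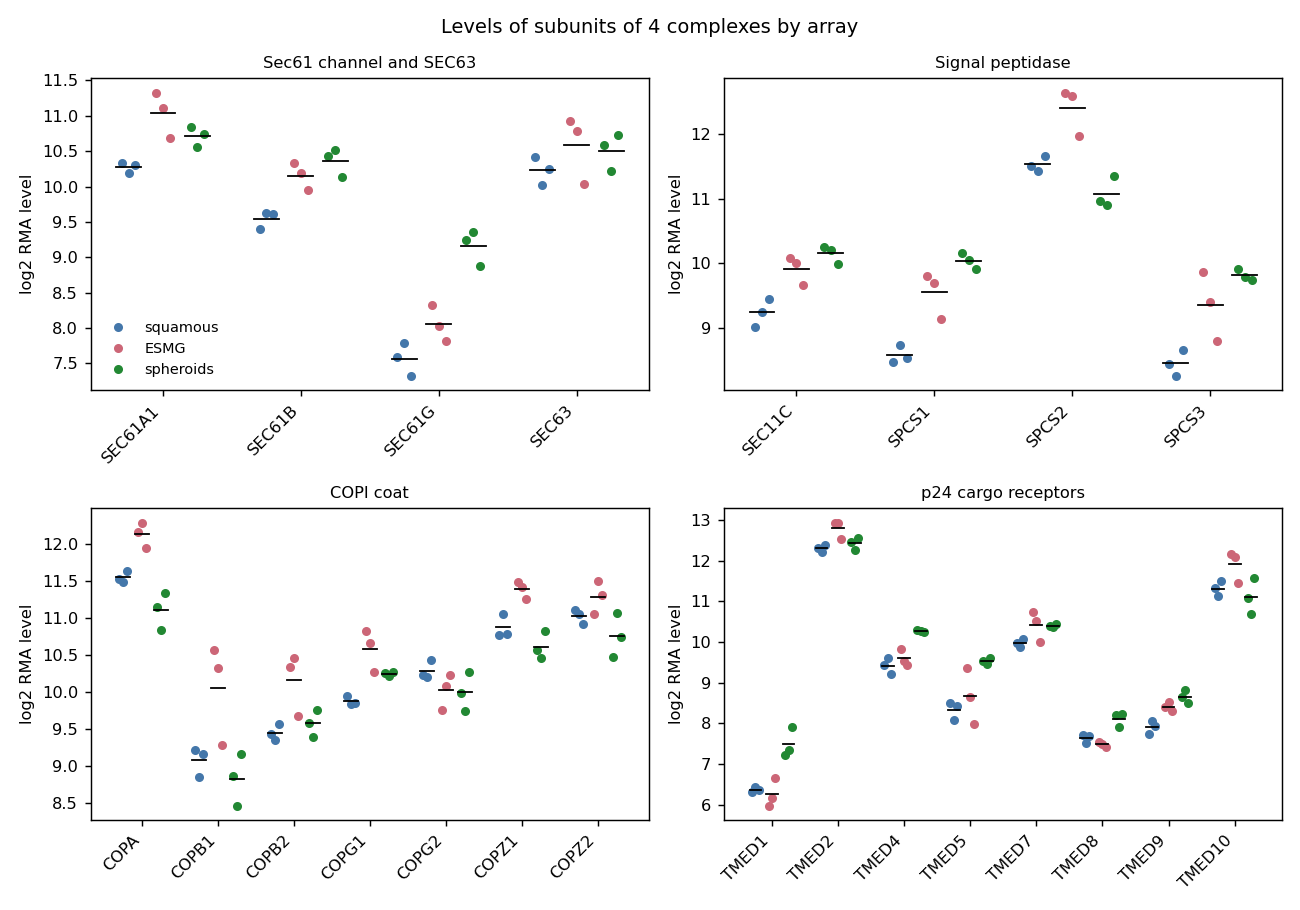
Points are single arrays and black bars group means of log2 RMA levels (vertical axis) for subunits of the Sec61 channel with SEC63, of signal peptidase, of the COPI coat and for 8 p24 proteins. SEC61G and SPCS1 are highest in spheroids and SPCS2 lowest there, COPA and COPB1 are highest in ESMG, and TMED1 and TMED4 stand apart in spheroids.

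Of 6 genes of N-glycosylation and mannose trimming, the 1 that passed between the tissues (16.7%, background 4.40%) was RPN1, a subunit of the oligosaccharyltransferase that attaches the glycan. It was at 11.72, 11.70 and 11.25 in ESMG, 10.68, 10.89 and 10.64 in squamous tissue and 10.96, 11.08 and 11.09 in spheroids. It was 0.82 higher in ESMG than in squamous tissue (adjusted p 0.00975) and 0.51 lower in spheroids than in ESMG (adjusted p 0.0198, and 0.0571 with equal medians), with no overlap in either. The latter also missed the threshold without ESMG of pig 37 or 39 or spheroids of pig 1. Of the catalytic subunits, STT3A, which acts as the chain enters the ER, was 0.82 lower in spheroids than in ESMG (adjusted p 0.00407), and STT3B, which can act afterwards, passed in no comparison, with differences between -0.20 and 0.05. Whether these 2 genes' differences differ was not tested.

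MAN1A1, a Golgi mannosidase that trims glycans, had the largest fall of any member from ESMG to spheroids. It was at 10.02, 9.49 and 9.19 in ESMG, 8.76, 7.85 and 8.99 in squamous tissue and 7.88, 7.62 and 7.41 in spheroids. Spheroids were below ESMG by 1.93 on the log2 scale (3.81-fold lower, SE 0.29, adjusted p 0.000243), and their range reached that of squamous tissue of pig 39. The related MAN1A2 passed in no comparison. Of the 6 genes 3 passed lower in spheroids than in ESMG (50.0%, background 17.6%). Against squamous tissue 1 (DDOST) passed higher in spheroids and 1 (MAN1A1) lower, 16.7% each way where the backgrounds were 23.6% and 17.4%. The DDOST pass was lost after cyclic loess (adjusted p 0.0591) and that of MAN1A1 with equal medians (adjusted p 0.0663), and each also with some single arrays left out.

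Among 13 folding genes, the disulfide isomerases PDIA3, PDIA4 and PDIA5 passed higher in ESMG than in squamous tissue, by 0.79, 0.86 and 0.75. The PDIA3 pass was lost with pig as a fixed block (adjusted p 0.0617) and without ESMG or squamous tissue of pig 37 or 39. That of PDIA5 was lost without ESMG of pig 37 or 39 or squamous tissue of pig 40. PDIA4 was at 11.37, 11.10 and 10.82 in ESMG, 10.25, 10.27 and 10.18 in squamous tissue and 10.62, 10.62 and 10.74 in spheroids, with no overlap between groups (adjusted p 0.00604 between the tissues). PDIA6 passed only against squamous tissue in spheroids (0.78, adjusted p 0.00201), and PDIA2 passed in no comparison. Its 2 probe sets had tissue differences of opposite sign (-0.07 and 0.06).

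HSPA5, the main ER chaperone of the Hsp70 family, was at 12.37, 11.51 and 11.38 in ESMG, 11.47, 11.13 and 11.42 in squamous tissue and 11.33, 11.01 and 11.42 in spheroids. ESMG of pig 37 stood above the other 8 arrays, which lay between 11.01 and 11.51, and the tissue difference of 0.41 did not pass (SE 0.24, adjusted p 0.399). Spheroids were 0.50 below ESMG (adjusted p 0.116), a difference that passed after cyclic loess (-0.64, adjusted p 0.0447), with array weights and without ESMG of pig 40. DNAJB9, a co-chaperone of HSPA5, was at 9.95, 8.68 and 7.74 in ESMG, 7.87, 7.49 and 7.68 in squamous tissue and 8.51, 8.26 and 8.19 in spheroids. ESMG of pig 40 was near squamous tissue, and the tissue difference of 1.11 had an SE of 0.41 (adjusted p 0.156). It ran from 0.53 without ESMG of pig 37 to 1.64 without ESMG of pig 40, where it was called (adjusted p 0.00525), as it was with array weights (1.34, adjusted p 0.0212).

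HYOU1, which recharges HSPA5, was also widest in ESMG, at 9.95, 8.84 and 8.50, against 8.52, 8.28 and 8.32 in squamous tissue. Spheroids, at 9.32, 9.46 and 9.30, were 0.99 above squamous tissue (adjusted p 0.0165). DNAJB11, another co-chaperone, was 0.93 above squamous tissue in spheroids (adjusted p 0.00193), and its tissue difference of 0.48 did not pass. The lectin chaperones CALR and CANX, which hold glycoproteins during folding, passed in no comparison as deposited: their tissue differences were 0.28 and 0.31, and in spheroids against ESMG they were -0.32 and -0.20. CALR passed lower in spheroids than in ESMG after quantile normalization (-0.39, adjusted p 0.0174) and cyclic loess (-0.42, adjusted p 0.0109). It also did with array weights and without ESMG of pig 40.

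ERO1A and ERO1B are the oxidases that recharge the isomerases. ERO1A was at 9.40, 9.76 and 9.38 in ESMG, 10.25, 10.58 and 10.12 in squamous tissue and 8.12, 7.97 and 8.34 in spheroids, with no overlap between groups. It was the 1 member lower in ESMG than in squamous tissue (-0.80, SE 0.17, adjusted p 0.017), a pass lost without ESMG of pig 37 or squamous tissue of pig 39. Spheroids were lower than ESMG by 2.59-fold (log2 -1.37, adjusted p 6.45e-05) and lower than squamous tissue by 4.50-fold (log2 -2.17, adjusted p 1.93e-06). ERO1B was at 8.76, 8.34 and 7.30 in ESMG, 7.14, 6.81 and 7.11 in squamous tissue and 7.07, 6.92 and 7.61 in spheroids. Its tissue difference of 1.11 did not pass (adjusted p 0.0633), and its fall of 0.94 from ESMG to spheroids did (adjusted p 0.0314, and 0.0679 with equal medians).

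**Figure D4:**
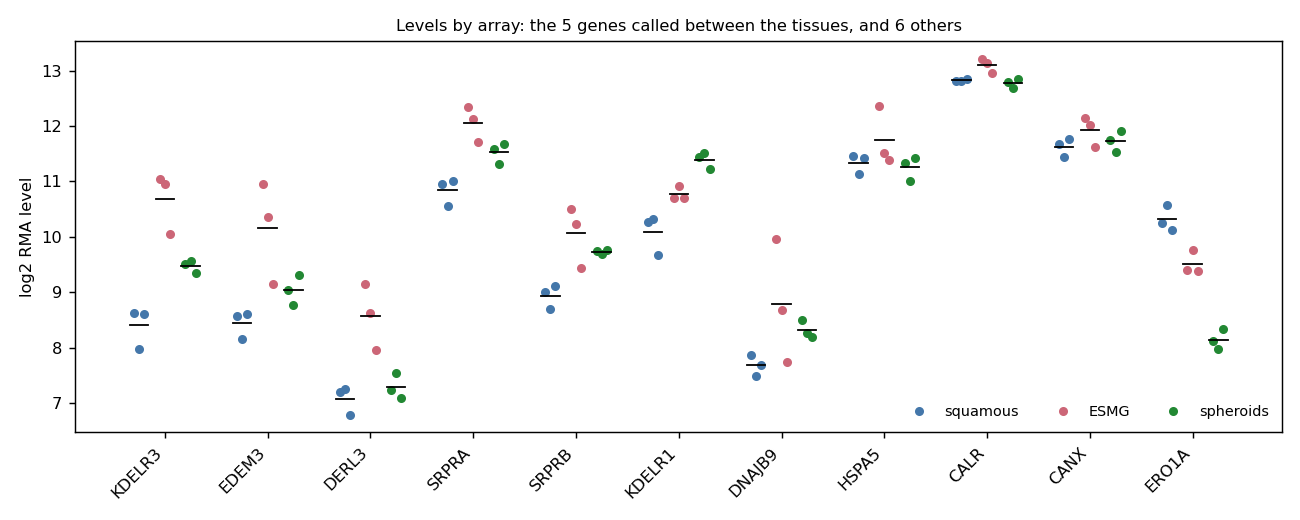
Points are single arrays and black bars group means of log2 RMA levels (vertical axis) for the 5 genes called between the tissues and 6 others. The 5 called genes have every ESMG array above every squamous array, DNAJB9 and HSPA5 spread widely within ESMG, the group means of CALR and CANX lie close (tissue differences 0.28 and 0.31), and ERO1A is highest in squamous tissue.

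In ER-associated degradation, which returns misfolded proteins to the cytosol, 3 of 7 genes passed higher in ESMG than in squamous tissue (42.9%, background 4.40%). EDEM3 (probe set 15328302), of a family that marks misfolded glycoproteins by trimming mannose, was at 10.95, 10.36 and 9.15 in ESMG, 8.56, 8.16 and 8.60 in squamous tissue and 9.03, 8.77 and 9.30 in spheroids. Groups did not overlap between the tissues, but ESMG of pig 40 lay within the spheroid range. The tissue difference was 1.71 (3.28-fold, SE 0.36, adjusted p 0.0147), with an adjusted p of 0.0611 without ESMG of pig 39 and 0.0638 without squamous tissue of pig 39. Spheroids were lower than ESMG by 1.12 on the log2 scale (adjusted p 0.0246, and 0.0515 with equal medians), which also missed the threshold without ESMG of pig 37 or 39 or spheroids of pig 1 or 2.

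DERL3 (probe set 15225530), a derlin of the channel that moves such proteins out and also known from plasma cells, was at 9.15, 8.62 and 7.95 in ESMG, 7.20, 7.25 and 6.79 in squamous tissue and 7.24, 7.54 and 7.09 in spheroids. Every ESMG array exceeded every other array. The tissue difference was 1.49 (2.81-fold, SE 0.26, adjusted p 0.00607), and spheroids were 2.43-fold below ESMG (log2 -1.28, adjusted p 0.0021) and not told from squamous tissue (0.21, adjusted p 0.577). The relative DERL1 passed in no comparison, with a tissue difference of 0.05.

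EDEM2 was 0.61 higher in ESMG than in squamous tissue (adjusted p 0.044) and 0.72 higher in spheroids than in squamous tissue (adjusted p 0.00323), and EDEM1 passed only in the latter (0.54, adjusted p 0.0138). The EDEM2 tissue pass was lost with pig as a fixed block (adjusted p 0.111) or random block (adjusted p 0.0726). It was also lost with any array left out but ESMG of pig 40. The EDEM1 pass was lost after quantile normalization (adjusted p 0.0625) and cyclic loess (adjusted p 0.083). SEL1L, the adaptor of the main degradation ligase, passed in no comparison as deposited. With array weights or without ESMG of pig 40 it passed lower in spheroids than in ESMG.

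In the COPII coat, which buds vesicles from the ER, the SEC24 subunits bind cargo. SEC24D was at 11.46, 11.09 and 10.90 in ESMG, 10.39, 9.81 and 10.29 in squamous tissue and 10.04, 9.80 and 9.87 in spheroids. SEC24A was at 11.65, 11.65 and 11.12 in ESMG, 10.64, 10.16 and 10.68 in squamous tissue and 10.58, 10.25 and 10.69 in spheroids. For both, every ESMG array exceeded all 6 others.

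Their tissue differences were 0.98 (adjusted p 0.0104) and 0.99 (adjusted p 0.0136), just short of 2-fold. From ESMG to spheroids SEC24D fell by 1.25 (2.37-fold, adjusted p 0.000279) and SEC24A by 0.97 (adjusted p 0.00219). SEC24C differed by -0.03 between the tissues and was 0.52 higher in spheroids than in ESMG (adjusted p 0.00647). SEC24B passed in no comparison as deposited, but was lower in spheroids than in squamous tissue after cyclic loess (-0.40, adjusted p 0.0396). The outer coat gene SEC31B was at 8.36, 8.57 and 8.27 in ESMG, 8.10, 8.31 and 8.07 in squamous tissue and 6.82, 7.36 and 7.36 in spheroids. It was 2.33-fold lower in spheroids than in ESMG (log2 -1.22, SE 0.17, adjusted p 0.000151), the spheroids being clear of both tissues, and SEC31A was lower by 0.72 (adjusted p 0.00401). Of the 11 genes 2 passed higher (18.2%, background 4.40%) and 0 lower between the tissues (0 lower also by unadjusted p). In spheroids against ESMG 2 passed higher (18.2%, background 23.9%) and 5 lower (45.5%, background 17.6%).

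KDELR3 (probe set 15291435), 1 of the receptors that send ER residents back from the Golgi, differed most of all 85 genes between the tissues. It was at 11.04, 10.94 and 10.05 in ESMG, 8.63, 7.98 and 8.61 in squamous tissue and 9.52, 9.56 and 9.34 in spheroids, 3 separate ranges. ESMG was above squamous tissue by 2.27 (4.83-fold, SE 0.26, adjusted p 0.000383). The difference lay between 2.06 and 2.59 over the 19 alternatives that refitted this comparison, and KDELR3 was called in each. Spheroids were 2.31-fold below ESMG (log2 -1.21, adjusted p 0.00254) and 2.09-fold above squamous tissue (log2 1.07, adjusted p 0.00563), the last falling under 2-fold after quantile normalization (0.95) and cyclic loess (0.90).

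KDELR1, the broadly expressed receptor, had another order: 10.70, 10.91 and 10.69 in ESMG, 10.27, 10.31 and 9.67 in squamous tissue, and 11.44, 11.51 and 11.22 in spheroids. Spheroids were highest, above ESMG by 0.62 (adjusted p 0.0155, and 0.0847 after cyclic loess) and above squamous tissue by 1.30 (2.47-fold, SE 0.18, adjusted p 0.000139). Its tissue difference of 0.68 was at an adjusted p of 0.0492. That pass was lost after quantile normalization (adjusted p 0.0681) and cyclic loess (0.0775), and with pig as a fixed (0.0786) or random block (0.0854). It was also lost with any array left out but ESMG of pig 40 or squamous tissue of pig 39.

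The 5 genes whose levels followed KDELR3 most closely over the 9 arrays, by Pearson's r among all 12217, were SLC50A1 (0.985), ACSL5 (0.983), ARFGAP3 (0.979), TBL2 (0.975) and RNF128 (0.975). Among the members SRPRA (0.969) and COPG1 (0.968) came closest. The arrays fall into 3 groups, which shapes any such r, so these values only describe.

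The COPI coat, which forms the returning vesicles, was lower in spheroids than in ESMG in 5 of 7 measured subunits (background 17.6%). Between the tissues 1, COPG1, passed higher in ESMG (0.71, adjusted p 0.0189, background 4.40%), but not with pig as a fixed block (adjusted p 0.0616). COPB1 was at 10.56, 10.33 and 9.28 in ESMG, 9.22, 8.85 and 9.16 in squamous tissue and 8.86, 8.46 and 9.16 in spheroids. It was 2.34-fold lower in spheroids than in ESMG (log2 -1.23, SE 0.29, adjusted p 0.00532), a difference of -0.98 without ESMG of pig 37. COPA was at 12.17, 12.29 and 11.94 in ESMG, 11.53, 11.48 and 11.64 in squamous tissue and 11.15, 10.84 and 11.34 in spheroids. The spheroids were the lowest, 2.03-fold below ESMG (log2 -1.02, adjusted p 0.000324; -0.91 with equal medians).

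COPB2, COPZ1 and COPZ2 were lower by 0.58, 0.78 and 0.52, of which COPB2 and COPZ2 did not pass with equal medians (adjusted p 0.0983 and 0.0679). COPG1, at -0.34, passed after quantile normalization and cyclic loess but not as deposited (adjusted p 0.1), and COPG2, at -0.02, changed sign with equal medians.

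The p24 proteins, cargo receptors that cycle with both coats, had 4 of 9 members higher in spheroids than in ESMG (background 23.9%) and 1 lower (background 17.6%). TMED1 was at 5.97, 6.17 and 6.66 in ESMG, 6.32, 6.44 and 6.35 in squamous tissue and 7.22, 7.36 and 7.91 in spheroids. Spheroids were above ESMG by 1.23 (2.35-fold, SE 0.21, adjusted p 0.000601) and above squamous tissue by 1.13 (2.18-fold, adjusted p 0.0011), the latter 0.92 without spheroids of pig 3. TMED4, TMED5 and TMED8 were also higher in spheroids than in ESMG (0.67, 0.87 and 0.62), TMED5 at an adjusted p of 0.0672 after cyclic loess, and TMED10 was lower (-0.79, adjusted p 0.0202, and 0.0557 with equal medians).

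TMED5 was at 9.37, 8.65 and 7.97 in ESMG, 8.50, 8.09 and 8.43 in squamous tissue and 9.53, 9.47 and 9.62 in spheroids. It was 2.30-fold higher in spheroids than in squamous tissue (log2 1.20, adjusted p 0.00439), and ESMG of pig 40 was the lowest of the 9 arrays. The pass against ESMG was also lost without ESMG of pig 39 or 40 or any 1 of the spheroid arrays. Of the 9 p24 genes, 0 passed between the tissues in limma (4 had an unadjusted p under 0.05, all higher in ESMG), and TMED9 passed at adjusted p 0.0499 with equal medians and after cyclic loess.

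The golgins, tethers on Golgi membranes, had few members that passed: 0 of 5 passed between the tissues (2 had an unadjusted p under 0.05, both higher in ESMG). GOLGA5 was 0.79 lower in spheroids than in ESMG (adjusted p 0.0106), and GOLGA3 was 0.38 higher in spheroids than in squamous tissue (adjusted p 0.0363). The GOLGA3 pass was lost after quantile normalization (adjusted p 0.0564) and cyclic loess (adjusted p 0.1135), and with some single arrays left out. Of the genes matched by name only, SEC14L2 passed higher in spheroids against ESMG (0.44) and squamous tissue (0.36), and the others passed nowhere as deposited. The SEC14L2 pass against squamous tissue was lost with any array left out, and that against ESMG without ESMG of pig 39 or spheroids of pig 2. Leaving these 3 out left every count of called members as it was.

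Genes of the unfolded protein response that the family names do not cover were counted from a list of 28, of which 23 were measured. Between the tissues 7 were called higher in ESMG (30.4%, background 2.65%) and 0 lower in limma (0 also by unadjusted p), with a median difference of 0.41. XBP1, a main activator of ER genes, was at 11.76, 11.81 and 10.997 in ESMG, 9.59, 9.47 and 9.65 in squamous tissue and 10.04, 10.14 and 10.56 in spheroids. It was 3.86-fold higher in ESMG (log2 1.95, SE 0.22, adjusted p 0.000361), and the spheroids lay between the tissues. CREB3L1, a membrane-bound factor of secretory cells that is also on the gland marker list, was at 11.10, 10.96 and 10.43 in ESMG, 8.58, 8.79 and 8.30 in squamous tissue and 8.98, 9.32 and 9.002 in spheroids. It was 4.84-fold higher in ESMG than in squamous tissue (log2 2.27, adjusted p 7.05e-05) and 3.32-fold lower in spheroids than in ESMG (log2 -1.73, adjusted p 3.73e-05).

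The other genes called higher in ESMG were CREB3L2, CREB3L4, the sensor kinase EIF2AK3 (PERK, 1.49), DDIT3 (CHOP, 1.17) and SELENOS, a partner of the degradation channel. The sensors ATF6 and ERN1 (IRE1) and the factor ATF4 did not pass between the tissues (0.19, 0.08 and 0.37), nor did the induced ER proteins MANF (0.86), SDF2L1 (0.41) and CRELD2 (0.10). MANF was called without ESMG of pig 40 (1.23, adjusted p 0.00197) and with array weights (1.16, adjusted p 0.00411), and was at 0.52 without ESMG of pig 37. ERN2 and HERPUD1 have no values here.

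In spheroids against ESMG, 3 of the 23 were called higher (TRIB3 1.24, ATF3 1.20 and ASNS 1.05, known targets of ATF4; background 7.99%). The 5 called lower (21.7%, background 8.91%) were CREB3L1, CREB3L2, CREB3L4, EIF2AK3 and XBP1. TRIB3 was at 6.19, 6.06 and 6.35 in ESMG, 6.27, 6.66 and 6.21 in squamous tissue and 7.88, 7.22 and 7.21 in spheroids, which lay above both tissues (adjusted p 0.000417 against ESMG). ATF4 itself was 0.49 higher than in ESMG (adjusted p 0.0189), and CHAC1, another of its targets, was lower (-0.999, adjusted p 0.00736). Against squamous tissue 6 were called higher (26.1%, background 8.61%), among them NUCB2 (1.77) and MANF (1.20), and 1, CHAC1, lower (-1.03, adjusted p 0.00635; background 8.05%).

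**Figure D5:**
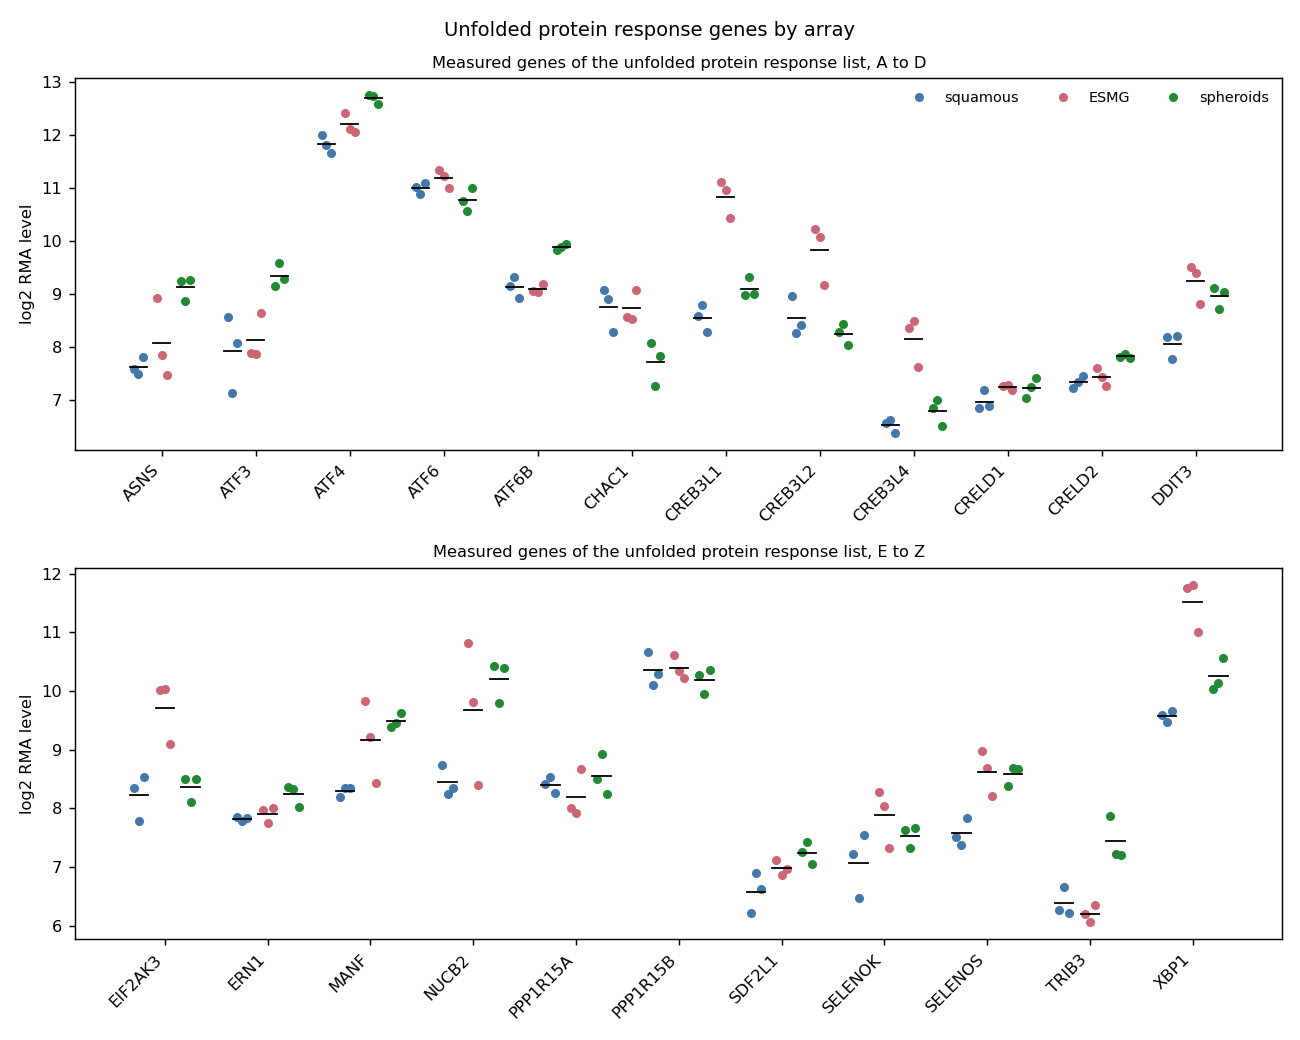
Points are single arrays and black bars group means of log2 RMA levels (vertical axis) for the 23 measured genes of the unfolded protein response list, in alphabetical order. CREB3L1, CREB3L4, EIF2AK3 and XBP1 have their highest 3 arrays in ESMG, while ATF6B and TRIB3 are highest in spheroids.

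A further list of 89 ER and Golgi genes outside the family names had 60 measured. Between the tissues 6 were called higher in ESMG (10.0%, background 2.65%) and 0 lower in limma (0 also by unadjusted p, median 0.36). In spheroids against ESMG 4 were called higher and 4 lower, 6.67% each way where the backgrounds were 7.99% and 8.91%. Against squamous tissue limma called 8 higher (13.3%, background 8.61%) and 0 lower (background 8.05%; 6 lower by unadjusted p under 0.05). AGR2, an isomerase needed for mucin folding and also a gland marker here, was at 12.88, 12.64 and 12.16 in ESMG, 8.27, 5.24 and 6.03 in squamous tissue and 12.04, 12.01 and 11.64 in spheroids. It differed by 6.05 between the tissues (adjusted p 0.000106), and its difference of -0.66 between spheroids and ESMG did not pass. LMAN1, a lectin that loads glycoproteins into COPII vesicles, was at 11.81, 11.75 and 10.56 in ESMG, 9.73, 9.43 and 9.62 in squamous tissue and 10.25, 9.86 and 10.35 in spheroids. It was 3.43-fold higher in ESMG than in squamous tissue (adjusted p 0.00348) and 2.33-fold lower in spheroids than in ESMG (adjusted p 0.00472).

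GOLM1, a Golgi membrane protein, was 7.26-fold higher in ESMG and 8.02-fold higher in spheroids than in squamous tissue (log2 2.86 and 3.00). The largest called changes from ESMG to spheroids in that list were FKBP7, an ER prolyl isomerase (-1.76, adjusted p 0.000573), and UBE2J2, a ubiquitin-conjugating enzyme of the ER membrane (1.51, adjusted p 2.79e-05). UBE2J2 was at 7.52, 7.47 and 7.79 in ESMG, 7.74, 7.21 and 7.75 in squamous tissue and 9.11, 9.11 and 9.09 in spheroids.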

How the data were processed

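The deposited values are log2 RMA levels of 27558 probe sets on 9 arrays, made by the authors with Affymetrix Expression Console (rma-gene-full), per the labels. The submitters' processing notes also list Transcriptome Analysis Console 3.0 without a role. No source used here names a genome build. The deposited log2 values were used unchanged. Platform annotation named 1 gene for 13157 probe sets, several for 523 and none for 13878; only the first were used. Of these, 12841 matched RefSeq by Entrez gene identifier and took its symbol, which changed the name of 7, and 316 kept the array's name. Among the probe sets of 881 genes the brightest by mean level was kept, which left 12217 genes; 5 probe sets whose several symbols match the rule were not used. All 9 columns matched a sample.

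Group means were fitted with limma 3.58.1 (R 4.3.3; lmFit, eBayes, 6 residual degrees of freedom) over all genes and all 9 arrays, two-sided, after the script was tested on simulated data. The labels call the arrays biological replicates. ESMG and squamous tissue share animals by pig number: deviations from the group means correlated at 0.42 in pig 37, -0.15 in pig 39 and -0.17 in pig 40, and a block on pig was an alternative. The members and gene lists were chosen with earlier results of these data known, so no set was tested. Named members are those called between the tissues, up to 10 called in each direction in each spheroid comparison, and a preset choice of chaperones, channel, coat, receptor and derlin genes; members beyond that rule (among them STT3A, STT3B, ERO1B, SRP subunits, PDIA3, PDIA5, PDIA6, SSR, EDEM1, EDEM2, COPI and TMED genes) were added once values were known. Other normalizations, filters, weights, thresholds and each array left out were alternatives; counts by adjusted p alone under them were added after the values were seen. No promoter or protein sequence was analysed here.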

Additional observations from a re-analysis of the deposited data

How the results depend on the processing

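The values of 49 named genes and the counts and medians of the members and lists were recomputed under up to 21 alternatives. Of 2272 values of these genes under the alternatives, 2154 kept their direction and stayed called or not called. A further 23 were no longer called, 70 were newly called and 25 changed sign. Calls were made here by each alternative's own cutoff. Adjusted p alone and the 1.5-fold minimum only loosened that cutoff on the main fit, so they could add calls but not remove any. Leaving out each array in turn, 4 to 17 members were called higher in ESMG than in squamous tissue, and by adjusted p alone 7 to 40 were higher and 0 to 1 lower. Spheroids against ESMG gave 1 to 3 called higher and, by adjusted p alone, 7 to 17 higher and 14 to 35 lower. Spheroids against squamous tissue gave 1 to 3 called lower and 2 to 7 lower by adjusted p alone, and 4 to 7 called genes of the unfolded protein response list.

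The replicate block, pig as a fixed block in the 6 tissue arrays, left 11 members higher in ESMG by adjusted p alone and the same 5 members called. With pig as a random block 15 were higher. The 6 compared arrays alone gave 13. Array weights gave 11 called and 46 by adjusted p higher in ESMG, 38 lower in spheroids than in ESMG, and 2 called and 13 by adjusted p lower in spheroids than in squamous tissue, where the unfolded protein response list had 4.

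Equal medians gave 14 members lower in spheroids than in ESMG by adjusted p, and against squamous tissue a median of 0.43, 11 called higher, 2 lower by adjusted p and 13 called in the other ER and Golgi list. Cyclic loess gave 1 called higher and 7 higher by adjusted p against ESMG, and against squamous tissue a median of 0.17, 3 called lower and 11 lower by adjusted p.

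By adjusted p alone 22 members were higher and 1 lower in ESMG, 13 higher and 23 lower in spheroids against ESMG, and 32 and 5 against squamous tissue; with a minimum of 1.5-fold these were 21 and 1, 7 and 18, and 20 and 3. The other ER and Golgi list had 15, 24 and 26 by adjusted p and 15, 17 and 21 at 1.5-fold, and the unfolded protein response list against squamous tissue 15 and 12.

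The sign changes were all in differences that did not pass. With an array left out, the range crossed 0 between the tissues for DERL1 (-0.018 to 0.14), SEC24B (-0.23 to 0.049) and SEC24C (-0.070 to 0.041), between spheroids and ESMG for DERL1 (-0.27 to 0.11), DNAJB9 (-0.998 to 0.11), HYOU1 (-0.036 to 0.69) and MANF (-0.028 to 0.67), and between spheroids and squamous tissue for DERL1 (-0.22 to 0.16), EIF2AK3 (-0.073 to 0.30), HSPA5 (-0.19 to 0.037) and SEC24A (-0.15 to 0.14). Other settings that turned the sign were array weights between the tissues (DERL1 -0.015, SEC24C 0.011) and, between spheroids and squamous tissue, equal medians (CALR 0.083, DERL1 0.059, HSPA5 0.044), cyclic loess (CANX -0.0095, EIF2AK3 -0.014, SEC24A -0.13), quantile normalization (SEC24A -0.11) and array weights (SEC24A -0.032). The cause was not tested.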
